A study of Rattus norvegicus with 12 samples.

Results

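H19 and 9 other imprinted genes, Igf2, Cdkn1c, Dlk1, Meg3, Peg3, Plagl1, Grb10, Mest and Ndn, were followed in bulk RNA-seq libraries of primary rat oligodendrocyte precursor cells (OPCs). The genes were looked up by symbol in a table of read counts with 30562 genes. The table held 9 of the 10 symbols, and Meg3, which had no row under that symbol, was not analysed here. Of these 9 genes, 7 were among the 8938 genes that passed a filter on low values (counts scaled to library size, CPM, above 10 in at least 1 library), whereas Dlk1 and Grb10 did not. The set was chosen from imprinted genes with the comparison of the conditions in these libraries already known, so the values of its members are a description and carry no p-value.

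The study compared OPCs exposed to mild hypoxia (mild-hypo-OPCs) with OPCs cultured in the usual way (standard OPCs), and asked how a mild hypoxic preconditioning changes these cells ex vivo. Both groups were wild-type cells, which according to the study's methods were taken from the cortex of newborn Sprague-Dawley rats and grown with FGF-2 and PDGF-AA. The mild-hypo-OPCs were kept at a fraction of inspiratory oxygen (FiO2) of 5%. The labels give 6 hours for this exposure, whereas the study's methods give an exposure of days. The mild-hypo-OPCs comprised 6 libraries and the standard OPCs 6, which is more libraries than replicates in the study's legend. Nothing in the labels says that they came from separate cultures, so errors and p-values measure the spread between these libraries, which may be technical. The mild-hypo-OPC libraries held 4111669 to 9022324 counts each and the standard OPC libraries 1356079 to 2797513, so that depth did not overlap between the groups. Ribosomal RNA genes took 17.4% to 25.2% of the counts of a mild-hypo-OPC library and 23.9% to 38.4% of those of a standard OPC library. Myelin and precursor genes were abundant in both groups, and the OPC marker with most counts, the receptor gene Gpr17, was at 1324 ± 108 CPM in mild-hypo-OPCs and 967 ± 94.3 CPM in standard OPCs (SD, n = 6).

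Imprinted genes are expressed mainly from the allele inherited from 1 parent, and the choice of allele is kept by DNA methylation at imprinting control regions. In the cluster that holds H19, Igf2 and Cdkn1c, H19 and Cdkn1c are expressed from the maternal allele and Igf2 from the paternal one, and H19 and Igf2 share enhancers. Many imprinted genes act on growth, placental development and the brain. Imprint status is known mainly from mouse, and counts per gene do not tell the alleles apart. In bulk libraries, a lower value from fewer expressing cells and one from less RNA per cell cannot be told apart.

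H19 is a long noncoding RNA that also carries a microRNA, miR-675, and Igf2 carries miR-483 in an intron. Their mature sequences are shown because they are the best-known products of these transcripts besides the long RNA and the growth factor. They are RefSeq sequences on the minus strand of chromosome 1 of the rat assembly GRCr8, with miR-675-5p at chr1:207161800-207161821 and miR-483-3p at chr1:207247865-207247886. They are written 5′ to 3′ with the seed (bases 2 to 8) in capitals.
rno-miR-675-5p: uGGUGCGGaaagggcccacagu
rno-miR-675-3p: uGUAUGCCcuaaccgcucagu
rno-miR-483-5p: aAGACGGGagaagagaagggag
rno-miR-483-3p: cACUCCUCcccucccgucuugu
None of these 4 seeds was held by another of the 724 mature rat miRNAs in the RefSeq table. The libraries did not measure mature miRNAs, and the row named Mir675 had 0 counts over the 12 libraries.

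H19 was higher in mild-hypo-OPCs than in standard OPCs, at 342 ± 9.32 CPM against 213 ± 24.3 CPM (SD, n = 6 per group). Its level ranged from 325 CPM through a median of 346 CPM to 348 CPM in the mild-hypo-OPC libraries, on 1698 to 3311 counts. In standard OPCs it ranged from 185 CPM through a median of 209 CPM to 244 CPM, on 201 to 639 counts. Each of the 6 mild-hypo-OPC libraries thus lay above each of the 6 standard OPC libraries. The log2 fold change was 0.67 (SE 0.08), a ratio of mean CPM of 1.60. The mild-hypo-OPC libraries were close together, with a coefficient of variation of 2.73%, where counting error alone gives 2.21%. In standard OPCs the coefficient of variation was 11.4%, where counting error alone gives 5.55%, and replicates 1 and 2 were the highest libraries at 244 and 240 CPM.

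H19 was the only 1 of the 7 tested members whose groups did not overlap. In edgeR's quasi-likelihood test, 7.00% of all 8938 tested genes were called higher and 17.0% were called lower in mild-hypo-OPCs (adjusted p under 0.05). The libraries of mild-hypo-OPCs all lay above those of standard OPCs in 2.94% of tested genes and all below them in 5.40%. Because the genes were selected on this contrast, nothing is read from these counts.

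**Figure D1:**
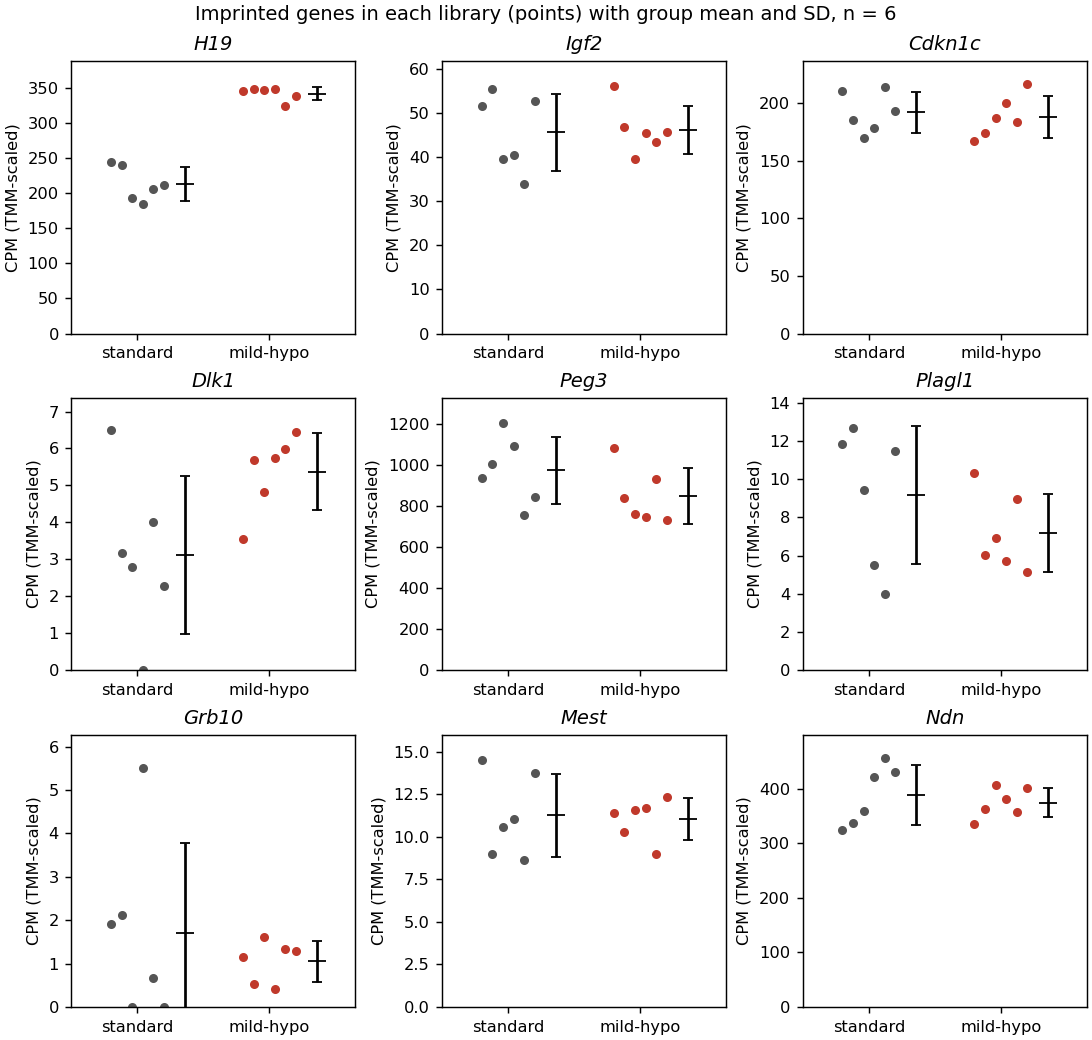
Level of each of the 9 genes in every library (points, CPM after scaling by the trimmed mean of M-values), with the mean and SD of each group (n = 6) beside the points. H19 is the gene in which the groups separate, with standard OPCs from 185 to 244 CPM and mild-hypo-OPCs from 325 to 348 CPM.

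Depth, ribosomal share and scaling moved together with the groups, so H19 was also computed under other settings. Thinning every library to the smallest total gave a log2 fold change of 0.71, and leaving out ribosomal RNA genes before scaling gave 0.70. Leaving out each library in turn gave 0.64 to 0.72. With the log2 total count as a covariate the value was 0.47, and with library size as the only scaling it was 1.11, where the median of all tested genes moved to 0.43. The direction was thus the same in these settings, and the size depended on how depth was handled.

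Igf2, the growth factor gene next to H19, had nearly equal means in the 2 groups, at 46.2 ± 5.48 CPM in mild-hypo-OPCs and 45.6 ± 8.74 CPM in standard OPCs, with a log2 fold change of 0.01 (SE 0.12). Its libraries ranged from 39.7 through a median of 45.6 to 56.1 CPM in mild-hypo-OPCs and from 34.0 through a median of 46.1 to 55.5 CPM in standard OPCs. The ranges overlapped, and 3 of the 12 libraries lay outside the overlap. Cdkn1c, which encodes the cyclin-dependent kinase inhibitor p57 and is a maternally expressed gene like H19, was at 188 ± 18.0 CPM and 192 ± 17.6 CPM, respectively (log2 fold change -0.03, SE 0.08). Its libraries ranged from 167 through a median of 185 to 216 CPM in mild-hypo-OPCs and from 170 through a median of 189 to 214 CPM in standard OPCs.

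The ratio of H19 counts to Igf2 counts within a library does not depend on scaling. It ranged from 6.15 to 8.75 in mild-hypo-OPCs (7.47 ± 0.83, SD, n = 6) and from 4.03 to 6.06 in standard OPCs (4.77 ± 0.70, n = 6), without overlap. The ratio of H19 to Cdkn1c ranged from 1.56 to 2.06 and from 0.963 to 1.30, respectively, also without overlap. The ratios of H19 to Peg3, Mest and Ndn did not overlap either, with the lowest mild-hypo-OPC library at 0.319, 27.3 and 0.843 and the highest standard OPC library at 0.272, 26.8 and 0.754. The ratio to Plagl1 overlapped, with 33.4 to 65.4 in the mild-hypo-OPC libraries against 18.5 to 51.5. Plagl1 had at most 99 counts in a library, and Mest had 12 to 38 in the standard OPC libraries. All of these ratios share the H19 counts, so they restate the H19 difference and are not separate results.

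**Figure D2:**
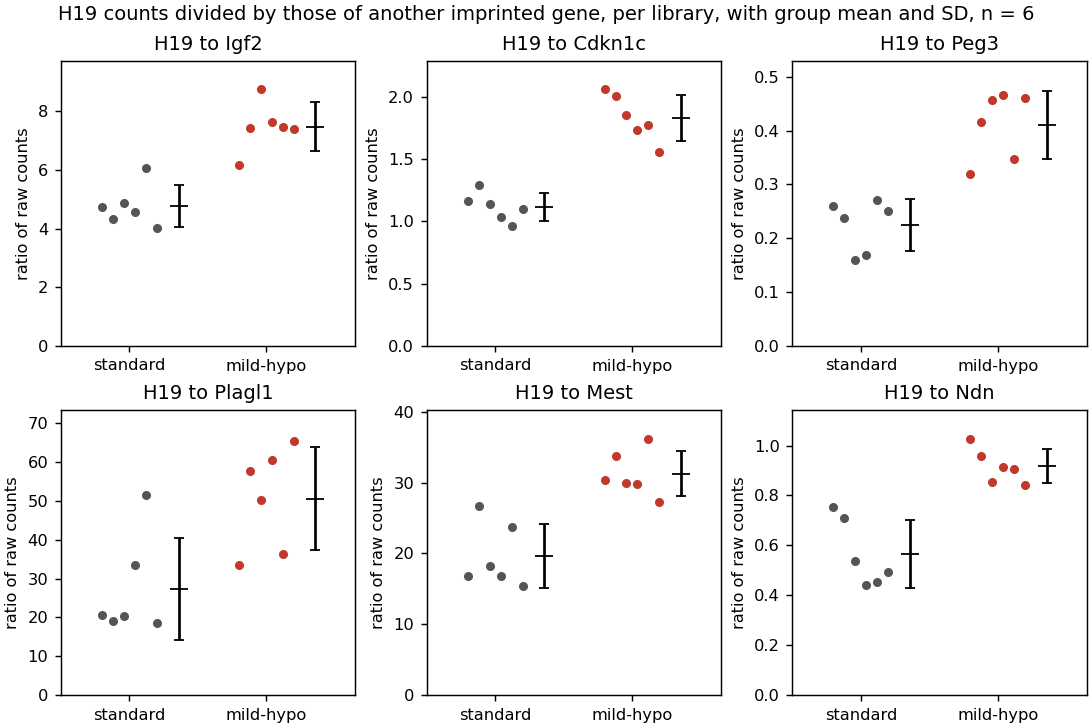
Counts of H19 divided by the counts of another imprinted gene in the same library (points), with the mean and SD of each group (n = 6). In all panels but that of Plagl1, the lowest mild-hypo-OPC library lies above the highest standard OPC library, for example at 6.15 against 6.06 for Igf2.

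The tested genes around H19 in the gene order of GRCr8 were then described, 6 on the side away from Igf2 and 10 on the side of Igf2 and Cdkn1c. This window was set after other values of these libraries had been seen. Between H19 and Cdkn1c the order holds 11 genes of the table, of which Igf2, Cd81 and Tssc4 were tested. The adjusted p-values that follow come from edgeR over all tested genes. The nearest tested gene on the other side was Mrpl23, which encodes a protein of the mitochondrial ribosome. Mrpl23 was lower in mild-hypo-OPCs at 21.0 ± 1.79 CPM against 33.1 ± 10.9 CPM (log2 fold change -0.60, SE 0.17, adjusted p = 0.0154). Its groups overlapped, from 17.8 to 22.9 CPM in mild-hypo-OPCs and from 17.6 to 48.0 CPM in standard OPCs. Farther out, Mob2, a regulator of NDR kinases, was lower (-0.55, SE 0.15, adjusted p = 0.0112). Dusp8, a phosphatase acting on MAP kinases, was higher (0.58, SE 0.19, adjusted p = 0.0288). The groups also overlapped in Mob2 and Dusp8. Cttn, which encodes the actin-binding protein cortactin, was higher at 126 ± 6.92 CPM against 103 ± 6.18 CPM (0.29, SE 0.07, adjusted p = 0.00675). Each mild-hypo-OPC library lay above each standard OPC library in Cttn. With the log2 total count as a covariate, 0 genes were called higher, so the calls of Dusp8 and Cttn were lost there. The log2 fold changes of the other 10 neighbors that are not members of the set lay between -0.19 (Cd81) and 0.15 (Brsk2) and did not pass the test. Of these 14 neighbors, 2 were thus higher and 2 lower, where 7.00% and 17.0% of all tested genes were, and nothing is read from their place in the order.

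**Figure D3:**
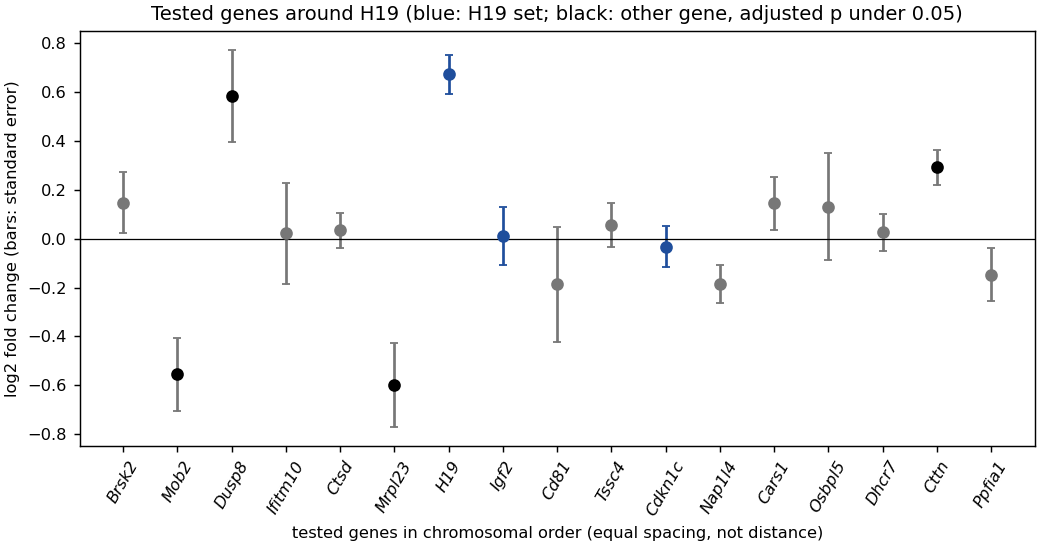
Log2 fold change (mild-hypo-OPCs relative to standard OPCs) of the tested genes around H19, in chromosomal order with equal spacing and with the standard error as bars. H19 stands at 0.67 between Mrpl23 at -0.60 and Igf2 at 0.01.

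Among the members outside this cluster, Peg3 and Plagl1 encode zinc finger proteins expressed from the paternal allele. Peg3 was at 849 ± 137 CPM in mild-hypo-OPCs and 975 ± 164 CPM in standard OPCs (log2 fold change -0.20, SE 0.12). Its libraries ranged from 733 through a median of 800.0 to 1083 CPM and from 758 through a median of 973 to 1207 CPM, respectively. These ranges overlapped, and the spread of Peg3 was far above its counting error of 1.43% and 2.59%, at coefficients of variation of 16.1% and 16.8%. Plagl1, whose protein is known to act on other imprinted genes, was near the filter at 7.19 ± 2.03 CPM and 9.16 ± 3.60 CPM (log2 fold change -0.38, SE 0.25), on as few as 6 counts in a library.

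Ndn encodes necdin, a paternally expressed protein of neurons and their precursors that restrains the cell cycle. It was at 374 ± 26.8 CPM in mild-hypo-OPCs, from 336 through a median of 372 to 406 CPM, and at 388 ± 54.8 CPM in standard OPCs, from 324 through a median of 390.1 to 456 CPM. Its log2 fold change was -0.05 (SE 0.09), and the standard OPC libraries spanned the whole range of the mild-hypo-OPC libraries. Mest, a paternally expressed gene of the hydrolase fold family, was at 11.0 ± 1.21 CPM and 11.3 ± 2.42 CPM (log2 fold change -0.05, SE 0.16). Its coefficient of variation, 11.0% and 21.5%, was no larger than counting error alone gives at this depth (12.3% and 24.3%).

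Dlk1, a transmembrane regulator of differentiation related to Notch ligands, did not pass the filter. It had 28 to 36 counts in each library of mild-hypo-OPCs and 0 to 17 in those of standard OPCs. Its level was 5.37 ± 1.04 CPM and 3.12 ± 2.13 CPM, and the log2 fold change without the filter was 0.59 (SE 0.31). The groups overlapped, since replicate 1 of the standard OPCs, at 6.50 CPM, was above all mild-hypo-OPC libraries. Grb10, an adaptor that restrains insulin and insulin-like growth factor receptor signaling, had 2 to 11 counts in each library of mild-hypo-OPCs and 0 to 6 in those of standard OPCs. No fold change is given for Grb10 at this depth.

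The values of these genes, like that of H19, depended on how depth was handled. With library size as the only scaling, Igf2, Cdkn1c, Mest and Ndn had log2 fold changes of 0.44, 0.40, 0.38 and 0.39, close to the median of all genes of 0.43 under that scaling. With the log2 total count as a covariate, Igf2 was at -0.42, Peg3 at -0.63, Plagl1 at -1.51 and Ndn at 0.41. The total counts of the groups did not overlap, so depth and condition cannot be told apart in that fit.

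**Figure D4:**
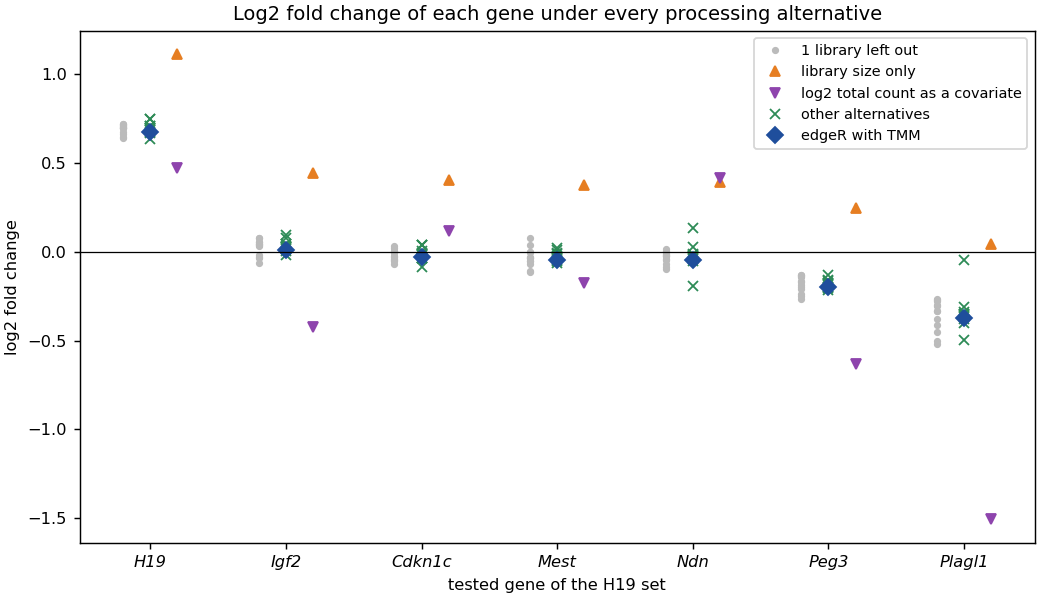
Log2 fold change of each tested gene of the set under edgeR with TMM scaling (diamonds) and under every alternative setting. H19 lies above 0 under each setting, from 0.47 to 1.11, whereas the other genes lie near or below 0 except with library size as the only scaling or, for Cdkn1c and Ndn, with the total count as a covariate, and for Ndn with replicates 1 to 3 only (0.14).

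A wider list of 63 other genes reported as imprinted in rodents was set beside the H19 set. The table held 52 of them, and 24 passed the filter. By edgeR, 0 of the 24 were higher and 1 was lower in mild-hypo-OPCs, beside 7.00% higher and 17.0% lower over all tested genes, and their median log2 fold change was -0.07, where that of all tested genes was -0.003. At an unadjusted p under 0.05, edgeR gave 2 higher and 4 lower, and limma-voom and DESeq2 also called 0 higher and 1 lower. The gene called lower was Commd1, which encodes a protein of copper handling and NF-kB turnover and is maternally expressed in mouse brain. Commd1 was at 17.5 ± 3.12 CPM in mild-hypo-OPCs and 31.1 ± 6.89 CPM in standard OPCs (log2 fold change -0.80, SE 0.15, edgeR adjusted p = 0.000994). Its call was lost with the log2 total count as a covariate (-0.07, edgeR adjusted p = 0.995).

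By parental allele, 4 of 10 tested paternally expressed genes had a positive log2 fold change (median -0.06), as did 6 of 13 maternally expressed genes (median -0.12). The 5 genes with most counts were Gnas, the gene of the stimulatory G protein alpha subunit (log2 fold change -0.08), Tssc4 (0.06), Nnat, a small membrane protein of the developing brain (-0.18), Dhcr7, an enzyme of cholesterol synthesis (0.03), and Nap1l4, a histone chaperone (-0.18). Their edgeR adjusted p-values were 0.447, 0.688, 0.133, 0.840 and 0.0953, respectively. Peg10, a paternally expressed gene derived from a retrotransposon, had the highest value of the list, 0.36 (SE 0.15, edgeR adjusted p = 0.0801). Peg10 and Igf2r were named after their values were seen. Igf2r, the maternally expressed receptor that clears Igf2, was at 31.6 ± 7.45 CPM and 30.1 ± 8.80 CPM (0.09, SE 0.19, edgeR adjusted p = 0.773).

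**Figure D5:**
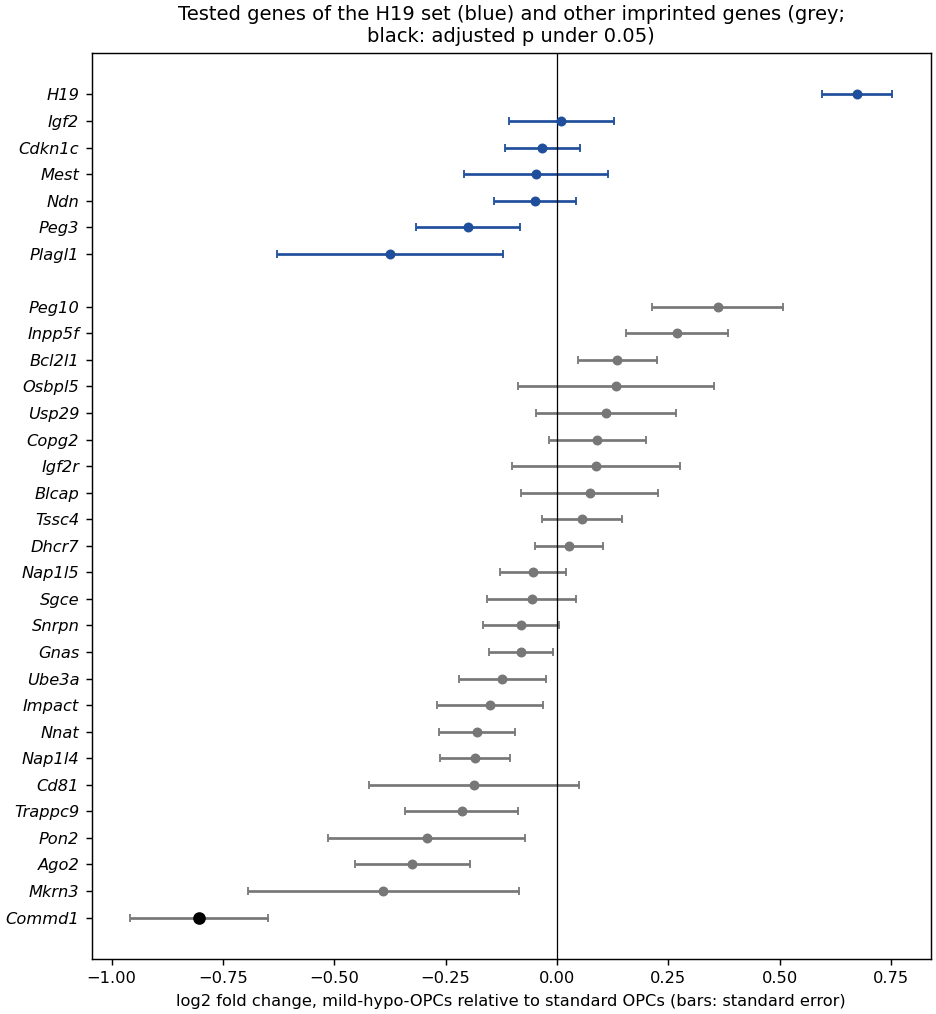
Log2 fold change (mild-hypo-OPCs relative to standard OPCs) with standard error of the 7 tested genes of the H19 set (blue) and of the 24 other tested imprinted genes (grey), each sorted by value. H19 at 0.67 is the highest point, and Commd1 at -0.80, in black, is the 1 other imprinted gene with an adjusted p under 0.05.

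The machinery that maintains imprints includes the zinc finger proteins that bind methylated control regions, their corepressors, DNA methyltransferases, CTCF and cohesin. Of 22 such genes, 19 were tested, 1 was higher and 0 were lower by edgeR (7.00% and 17.0% over all tested genes), and the median log2 fold change was 0.13, beside -0.003 over all tested genes. At an unadjusted p under 0.05, 3 were higher and 1 was lower, and limma-voom and DESeq2 likewise called 1 higher and 0 lower. The gene called was Uhrf1, which recruits the maintenance methyltransferase to hemimethylated DNA in dividing cells. Uhrf1 was at 22.9 ± 2.97 CPM in mild-hypo-OPCs and 13.7 ± 2.12 CPM in standard OPCs, without overlap (log2 fold change 0.71, SE 0.14, edgeR adjusted p = 0.00109). The log2 fold change was 0.63 with replicates 1 to 3 alone and 0.63 with the total count as a covariate, where the call was lost (edgeR adjusted p = 0.0889 and 0.545).

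Of 20 genes of the insulin-like growth factor axis, 12 were tested, and 1 was higher and 2 were lower (median log2 fold change -0.02), shares near the 7.00% and 17.0% of all tested genes. Igfbp5, a secreted binding protein for insulin-like growth factors, rose from 11.7 ± 3.44 CPM in standard OPCs to 25.1 ± 3.64 CPM in mild-hypo-OPCs without overlap (log2 fold change 1.04, SE 0.17, edgeR adjusted p = 0.000274). Igfbp2, another binding protein, was lower at 58.1 ± 7.66 CPM against 79.2 ± 18.8 CPM (-0.42, SE 0.14, edgeR adjusted p = 0.0282). Igfbp7, a related protein with low affinity for these factors, was lower at 25.9 ± 2.53 CPM against 32.3 ± 3.93 CPM (-0.32, SE 0.11, edgeR adjusted p = 0.0317). The call of Igfbp2 was lost in limma-voom (-0.39, adjusted p = 0.0504), with upper-quartile scaling (edgeR adjusted p = 0.0536), after thinning (0.0569), with replicates 1 to 3 only (0.370) and in all single-library omissions except those of mild-hypo-OPC replicate 6 and standard OPC replicates 1 and 2, where the log2 fold change ranged from -0.53 to -0.35 and edgeR adjusted p from 0.00344 to 0.0803 over the 12 omissions. The call of Igfbp7 held in 5 of these 12 omissions (log2 fold change from -0.36 to -0.26, edgeR adjusted p from 0.0276 to 0.0987) and in 10 of all 25 alternative fits. It was also lost with upper-quartile scaling, without the filter (edgeR adjusted p = 0.101), after thinning, with replicates 1 to 3 or 4 to 6 only and with the total count as a covariate. The call of Igfbp5 was lost with the total count as a covariate (0.38, edgeR adjusted p = 0.810).

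H19 is known to bind the let-7 miRNA family, so genes of the let-7 and LIN28 axis were listed as well. Of 10 genes, 4 were tested, with a median log2 fold change of 0.05. By edgeR, limma-voom or DESeq2, 0 of these 4 were called, where edgeR called 7.00% of all tested genes higher and 17.0% lower. At an unadjusted p under 0.05, 1 of the 4 genes, Dicer1, was higher by edgeR (0.28, SE 0.13, adjusted p = 0.114). With upper-quartile scaling, after thinning and with library size only, Dicer1 was called higher. Lin28a and Lin28b, which block let-7 maturation, had 0 counts in all libraries.

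H19 is also abundant in fetal mesenchymal cells, so markers of other cell types were read beside it, as summed CPM in mild-hypo-OPCs and standard OPCs (SD, n = 6). The 14 fibroblast and meningeal markers summed to 21.6 ± 2.93 CPM and 13.9 ± 3.29 CPM, most of it from Fn1 at 11.7 and 7.34 CPM. Lum, Tbx18, Slc22a6 and Aldh1a2 had 0 counts in all libraries, and 11 of the 14 markers, among them Col1a1, Col3a1 and Dcn, had a mean below 1 CPM over the 12 libraries. Postn, a matrix protein gene below the filter, was at 3.70 ± 0.83 CPM and 1.34 ± 0.93 CPM, and without the filter it was higher in mild-hypo-OPCs (log2 fold change 1.36, SE 0.39, edgeR adjusted p = 0.0155). Dcn, another matrix protein gene, went the other way, with 0 counts in each mild-hypo-OPC library and 0 to 3 in the standard OPC libraries (edgeR adjusted p = 0.0268 without the filter). The 11 pericyte and smooth muscle markers summed to 36.3 ± 6.05 CPM and 25.2 ± 4.37 CPM, mostly from Tagln at 30.1 and 21.1 CPM, with Rgs5 and Abcc9 at 0. Pdgfrb, a receptor gene of pericytes, had 2 to 6 counts in each mild-hypo-OPC library and 0 in each of the shallower standard OPC libraries (edgeR adjusted p = 0.0312 without the filter). The endothelial markers summed to 0.670 and 0.551 CPM, with Cdh5, Tek and Emcn at 0. Kdr led in mild-hypo-OPCs (0.497 CPM) and Flt1 in standard OPCs (0.267 CPM). The summed levels of the fibroblast and pericyte lists were thus higher in mild-hypo-OPCs, as was H19, and their part in the H19 difference was not tested.

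The other lists are read beside the 7.00% of all tested genes called higher and the 17.0% called lower. The OPC markers summed to 4255 ± 285 CPM in mild-hypo-OPCs and 3896 ± 325 CPM in standard OPCs. By edgeR, 1 of 9 tested markers was higher (Gpr17) and 1 lower (Pcdh15). Most of the difference between the sums came from Gpr17, at 1324 and 967 CPM. The median log2 fold change of the tested OPC markers was 0.05. The oligodendrocyte markers, led by Mbp, summed to 13603 ± 600.5 CPM and 11141 ± 1443 CPM. By edgeR, 5 of 8 were higher (among them Cldn11 and Mag) and 0 lower. Mbp, at 7132 and 5851 CPM, was not among these 5 (log2 fold change 0.29, edgeR adjusted p = 0.0555), and its groups overlapped. At an unadjusted p under 0.05, 6 of the markers were higher and 0 were lower, and limma-voom and DESeq2 each called 6 higher and 0 lower. The astrocyte markers, led by Gfap, summed to 921 ± 52.7 CPM and 874 ± 30.3 CPM, with 2 of 8 higher and 1 lower. The microglia markers, led by Csf1r, summed to 78.8 ± 9.87 CPM and 55.5 ± 13.4 CPM, with 3 of 6 higher and 1 lower. The lower marker was Tyrobp (log2 fold change -0.69, SE 0.19, edgeR adjusted p = 0.0112). Cx3cr1, at 1.29 ± 0.52 CPM and 0.303 ± 0.479 CPM, and Tmem119, at 0.619 ± 0.244 CPM and 0.328 ± 0.634 CPM, did not pass the filter. Nor did P2ry12 (4.44 and 2.77 CPM), Itgam (2.06 and 0.844 CPM) and Aif1, which had a lower mean in mild-hypo-OPCs (1.87 and 3.13 CPM). The neuron markers, led by Map2, summed to 382 ± 23.5 CPM and 313 ± 28.2 CPM, with 1 of 6 higher. The choroid plexus and ependymal markers summed to 405 ± 21.4 CPM and 386 ± 28.2 CPM, nearly all from Enpp2, a gene that oligodendrocyte lineage cells also express, which did not pass the test. Of Fn1 and Tagln, the tested markers of their lists, Tagln was called higher. The part of these other cell types in the H19 difference was not tested either.

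The genes whose level followed H19 most closely within the groups were named by Pearson's r of log2 CPM over the 12 libraries, after the mean of each group was subtracted. Among the 8 closest were Ttll12 (r = 0.96), Slc6a8 (0.96), Ncf1 (0.95), Fads1 (0.95), Slc25a53 (0.95), Pcbp3 (0.94) and Dynll2 (0.94). The points share libraries and depth, and the list depended on the measure, since 2 of these 8 genes were among the 8 closest by Spearman's rho and 0 of 8 by Pearson's r without subtraction of group means. Among the members, r with H19 was 0.63 for Igf2, 0.50 for Plagl1, 0.33 for Cdkn1c, 0.25 for Mest, -0.26 for Peg3 and -0.54 for Ndn. Igf2 was thus the member with the highest r, although its group means were nearly equal. The r values of this paragraph rest mostly on the standard OPC libraries, where log2 CPM of H19 ranged from 7.54 to 7.94. In mild-hypo-OPCs it ranged from 8.34 to 8.45, close to counting error. Standard OPC replicates 1 and 2, the highest in H19, were also the deepest of their group.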

How the data were processed

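RNA of rat OPCs was sequenced by the authors as 12 strand-specific paired-end libraries. The authors trimmed reads with Trimmomatic 0.36, checked them with FastQC 0.11.9, aligned them to mRatBN7.2 with STAR 2.7.9a and used RSEM 1.3.3 for quantification. The deposited table holds unnormalized counts, whole numbers for each Ensembl gene, and how RSEM's estimates were made whole, and with which strand setting, is not given in the sources used here. The table has 1 column per library, and 0 columns were left unused. Total counts per library, given with the results, limit the precision, and errors cover these libraries. Libraries counted as replicates by their labels. Any 2 of the same group differed beyond counting noise (a chi-square statistic over its degrees of freedom of at least 3.22 for mild-hypo-OPCs and 3.78 for standard OPCs), and no library was treated as a copy of another, although repeat preparations of 1 culture could differ as much.

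The fit used the genes whose CPM exceeded 10 in 1 or more libraries. After TMM scaling, edgeR 4.0.16 in R 4.3.3 (glmQLFit and glmQLFTest, condition as the only term, Benjamini-Hochberg adjustment over all genes kept, threshold 0.05) gave log2 fold changes. Their standard error is the one implied by the F statistic. CPM values are scaled by the TMM factors, with a prior count of 2 on the log scale. The study used limma-voom (here limma 3.58.1), which was an alternative, as were DESeq2 1.42.0, upper-quartile scaling, scaling by library size only, 3 other low-count filters, a replicate block, replicates 1 to 3 or 4 to 6 only, leaving out each library, thinning, log2 total count as a covariate, and leaving out ribosomal RNA genes. The fits were tested on simulated data. Figures were drawn with matplotlib 3.10.9.

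The members, the gene lists and the tests were chosen with earlier results of these data known. Named genes are every member, the called genes of the list of other imprinted genes and its 5 genes with most counts, up to 4 called genes of each pathway list, the 8 genes most like H19 (1 of which is not reported here), the gene with most counts of each cell type list, and the tested neighbors of H19. Other genes are examples picked with their values known. The lists cover imprinted genes, imprint maintenance, the insulin-like growth factor axis, let-7 and LIN28, and markers of OPCs, oligodendrocytes, astrocytes, microglia, fibroblasts, pericytes, endothelium, neurons and choroid plexus. Gene order, ribosomal RNA biotype and miRNA sequences came from RefSeq tables of GRCr8 matched by symbol. Coordinates of the 2 assemblies were not mixed.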

Additional observations from a re-analysis of the deposited data

Results flagged for a closer look

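The total count of mild-hypo-OPC replicate 1, at 9022324, stood apart from those of the other 5 libraries of its group, which ranged from 4111669 to 5474102. Its gap to the next library was 0.723 of the range of the group. Among 18 combinations of a gene of the H19 set with a group and 4 combinations of a library measure with a group, 1 stood apart in this way, where chance gives about 1 in 20. Without this library the log2 fold change of H19 was 0.70, against 0.67 with it.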

How the results depend on the processing

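The direction of H19 was the same in all 25 alternative fits (log2 fold change from 0.47 to 1.11), and that of Commd1, Uhrf1 and Igfbp5 too. The count of genes called higher (626) was 1136 with upper-quartile scaling, 5515 with library size only, 53 with replicates 1 to 3 only, 385 after thinning and 0 with the total count as a covariate (217 at an unadjusted p under 0.05 in edgeR), and the count called lower (1520) was 405 with library size only, 343 with replicates 1 to 3 only and 43 with the covariate. Other imprinted genes called higher (0) were 2 with upper-quartile scaling (Inpp5f and Peg10), 17 with library size only, 1 after thinning (Peg10) and 0 to 2 when single libraries were left out (Peg10 in the absence of replicate 3, 4 or 6 of the mild-hypo-OPCs or of replicate 1 of the standard OPCs, and Inpp5f in the absence of replicate 6 of either group). Those called lower (1) were 2 after thinning, 0 with the covariate and 1 to 2 when single libraries were left out (Ago2 besides Commd1 without standard OPC replicate 5). Genes called among imprint maintenance, insulin-like growth factor and let-7 genes (4) were 26 with library size only, 1 with replicates 1 to 3 only (Igfbp5), 1 with the covariate (Tet3) and 2 to 6 when single libraries were left out, with 2 without mild-hypo-OPC replicate 3, 4 or 5. Where this count was near 4, its genes still changed: Dicer1 was called with upper-quartile scaling and after thinning, Ctcf with upper-quartile scaling and without mild-hypo-OPC replicate 6, Dnmt1 without that library, Hells with filterByExpr and with ribosomal RNA genes left out, Zfp57 without standard OPC replicate 2, and Tet3 after thinning, with the replicate block and in the absence of replicate 1 of the mild-hypo-OPCs or of replicate 5 or 6 of the standard OPCs. With library size only, Gnas, Nnat, Nap1l4, Igfbp2 and Igfbp7 reversed to 0.36, 0.26, 0.25, 0.015 and 0.11, and with the covariate Igfbp2 reversed to 0.20. The cause of these changes was not tested. With a replicate block, 572 genes were called higher and 1471 lower, and Igfbp7 was no longer called (edgeR adjusted p = 0.0507). Same-numbered libraries deviated together (correlation over 0.1) in 2 of 6 pairs, from -0.276 to 0.296, and 2 of 6 standard OPC libraries correlated best with their own number, so the numbers were not taken as pairs. Summing rows of a repeated symbol was not applicable, since no symbol of the H19 set was repeated. Depth limits Grb10, Dlk1 and Plagl1 most.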

Other observations

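The genes closest to H19 within the groups were not all called between the groups. Over all tested genes, 7.00% were called higher by edgeR, and nothing is read from the share among these picked genes. With the log2 total count as a covariate, 0 genes were called higher, so the calls named here were lost there. By edgeR, Pcbp3, an RNA-binding protein gene (log2 fold change 0.51, SE 0.13, adjusted p = 0.00844), Dynll2, a dynein light chain gene (0.31, SE 0.09, adjusted p = 0.0165), and Slc6a8, the creatine transporter gene (0.31, SE 0.10, adjusted p = 0.0329), were higher in mild-hypo-OPCs. Ttll12 (0.35, SE 0.14, adjusted p = 0.0638), Ncf1 (0.54, SE 0.25, adjusted p = 0.127), Slc25a53 (0.25, SE 0.14, adjusted p = 0.215) and Fads1, a fatty acid desaturase gene (0.12, SE 0.10, adjusted p = 0.429), did not pass the test by edgeR.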
